A study of Mus musculus with 31 samples.

Results

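The MHC class II antigen presentation genes followed here are H2-Ab1, H2-Aa, H2-Eb1, H2-DMa, H2-DMb1, Cd74, Ciita and Ctss, taken by gene symbol from the array's annotation with the probe set of highest mean signal over all arrays. Of these 8 genes, 7 were measured among 22180 genes in all; the probe set for Cd74, the invariant chain, also carries a second symbol and was left unnamed, so no value is given for it. The samples were livers of male C57BL/6 mice aged 3 to 4 months, collected in the morning, with 1 liver per array and 31 arrays in 4 groups. The "Fed-Fed-Fed" group (n = 8) was fed ad libitum throughout and sampled fed, and the "Fed-Fed-Fast" group (n = 8) had the same history and was sampled after a 16 h fast. The "Fast-Fast-Fed" group (n = 8) had gone through 2 earlier fasts of 16 h within 8 weeks, with recovery after each, and was sampled fed, and the "Fast-Fast-Fast" group (n = 7) had the same history and was sampled after a further 16 h fast. The labels name no genetic change or drug in any group. The design asks how a fast changes liver expression and whether earlier fasts alter the level or the response.

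MHC class II molecules display peptides from endosomes to CD4+ T cells. An alpha and a beta chain pair in the endoplasmic reticulum with the invariant chain, cathepsin S (Ctss) trims the invariant chain in endosomes, and H2-DM exchanges its last fragment for a peptide. CIITA, the product of Ciita, is the coactivator that switches on the genes of the class II chains, the invariant chain and H2-DM. It acts through factors bound to X and Y boxes in their promoters. In liver the genes are known mainly from Kupffer cells (resident macrophages), dendritic cells and B cells.

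The promoter windows below show where the members hold exact matches to short cores of these boxes. A box with other letters would be missed, so a window without a match is not shown to lack it. They run from 250 bases before to 50 bases after the start site and come from RefSeq, build GRCm38.p6; 5 of the 8 named genes had a window. H2-Aa lies at chr17:34287774-34288073 on the minus strand, H2-Eb1 at chr17:34305617-34305916, H2-DMb1 at chr17:34152941-34153240 and Ctss at chr3:95526536-95526835, all 3 on the plus strand. Capitals mark matches on either strand to the X box core ACNGATG, the Y box core TGATTGG, the cAMP response element TGACGTCA and the paired interferon regulatory factor motif GAAANNGAA; the last 2 motifs were picked after the windows had been read.
H2-Aa: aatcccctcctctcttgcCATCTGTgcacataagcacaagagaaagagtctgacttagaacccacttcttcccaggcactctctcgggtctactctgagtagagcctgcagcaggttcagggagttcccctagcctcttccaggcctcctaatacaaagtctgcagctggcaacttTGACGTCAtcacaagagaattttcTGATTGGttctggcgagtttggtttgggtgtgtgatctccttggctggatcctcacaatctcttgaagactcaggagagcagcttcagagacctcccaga
H2-Eb1: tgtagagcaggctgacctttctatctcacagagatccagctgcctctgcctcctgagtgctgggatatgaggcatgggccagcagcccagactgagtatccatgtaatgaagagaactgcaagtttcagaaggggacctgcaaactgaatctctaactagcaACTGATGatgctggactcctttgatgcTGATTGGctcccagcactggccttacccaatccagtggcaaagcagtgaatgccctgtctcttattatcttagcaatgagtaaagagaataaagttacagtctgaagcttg
H2-DMb1: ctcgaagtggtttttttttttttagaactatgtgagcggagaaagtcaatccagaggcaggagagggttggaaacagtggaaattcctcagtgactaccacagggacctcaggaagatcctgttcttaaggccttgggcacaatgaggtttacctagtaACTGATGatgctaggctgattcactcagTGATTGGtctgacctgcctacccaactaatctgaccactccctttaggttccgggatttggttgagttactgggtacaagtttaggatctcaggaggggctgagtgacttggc
Ctss: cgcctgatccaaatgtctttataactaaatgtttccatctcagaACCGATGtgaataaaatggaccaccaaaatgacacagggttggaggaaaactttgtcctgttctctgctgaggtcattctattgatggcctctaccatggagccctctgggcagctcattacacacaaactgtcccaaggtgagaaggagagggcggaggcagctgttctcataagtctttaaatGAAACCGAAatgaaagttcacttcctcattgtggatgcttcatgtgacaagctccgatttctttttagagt
In H2-Eb1 the X box core stood at -88 to -82 and the Y box core at -61 to -55, 20 bases apart. H2-DMb1 had the same order, with the cores at -91 to -85 and -63 to -57, 21 bases apart. H2-Aa held TGACGTCA at -74 to -67 and the Y box core at -50 to -44, 16 bases apart, and an X box core on the reverse strand at -232 to -226. Ctss held no Y box core, an X box core at -206 to -200 and GAAACCGAA at -21 to -13. Neither window of H2-DMa, at chr17:34122582-34122881 and chr17:34125268-34125567, held an exact match to any of these motifs. Over 32851 promoters of this length, 9.85% held the X box core, 7.82% the Y box core, 0.703% both, 1.79% TGACGTCA and 8.56% the paired motif. These matches describe letters in a window and are not measured binding sites.

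Values were the authors' log2 signals after RMA normalisation, so a difference of 1 is a factor of 2. Array medians lay between 2.01 and 2.07, and arrays correlated with each other at r = 0.976 to 0.993. The means of 7 hepatocyte markers such as Alb lay between 11.8 and 11.9 in all arrays. The labels give no batch, and depth has no meaning for arrays; their number limits the precision.

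The classical class II chains were lower after the fast. H2-Ab1, the beta chain of the I-A molecule, was 2.09-fold lower in fasted than in fed livers, H2-Aa, its alpha chain, 1.61-fold lower, and H2-Eb1, the beta chain of I-E, 1.46-fold lower, as averages over both histories. Ctss was 1.58-fold lower. H2-DMa, H2-DMb1 and Ciita did not pass the test. In whole liver, fewer cells of a type and less RNA per cell cannot be told apart. The plot of member values by group shows each array.

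**Figure D1:**
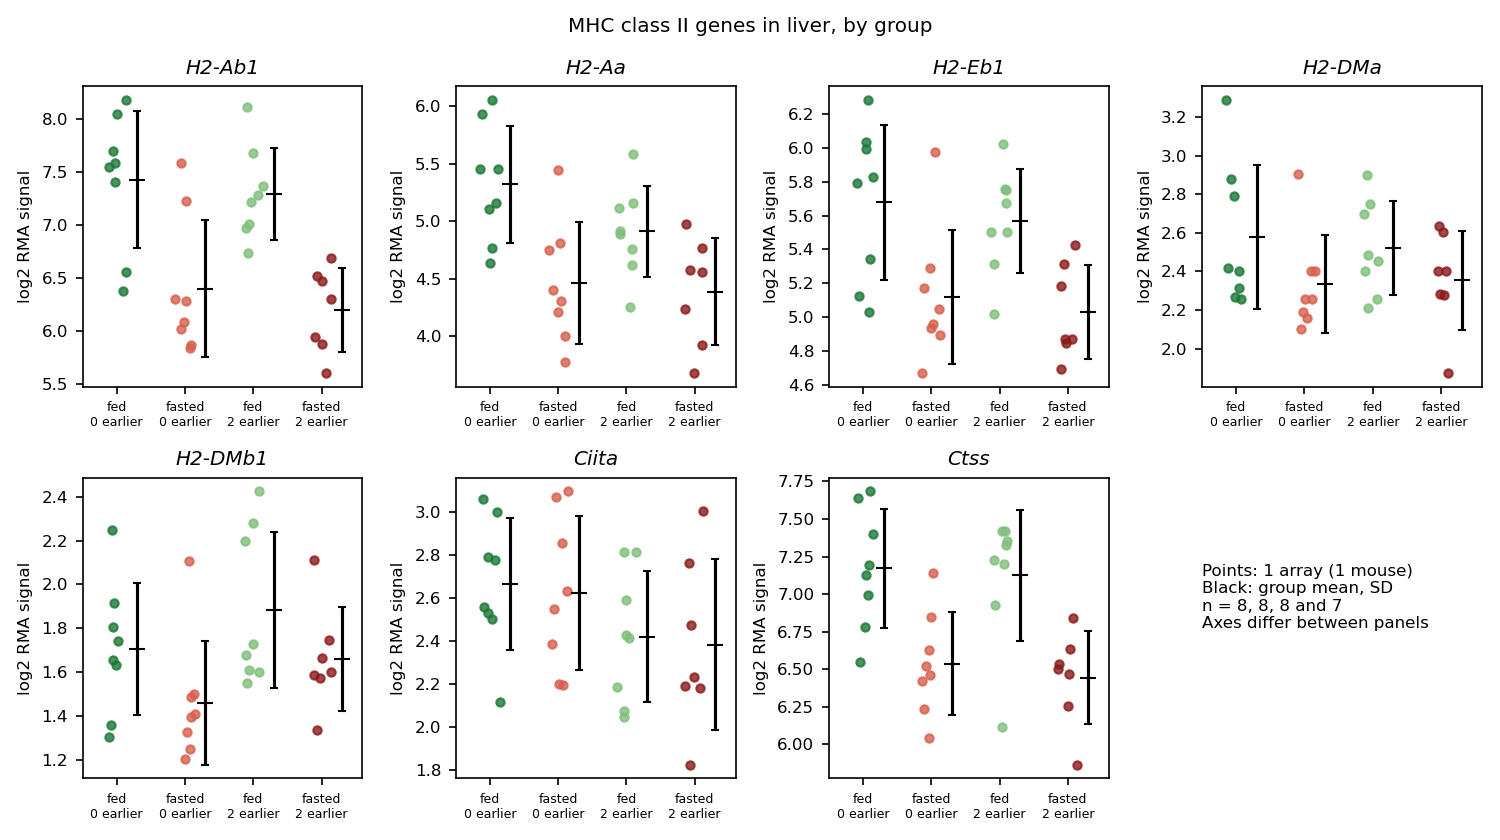
Log2 RMA signal of the 7 measured class II genes in 31 arrays; each point is the liver of 1 mouse, black bars give the group mean and SD (n = 8, 8, 8 and 7), and axes differ between panels. H2-Ab1, H2-Aa, H2-Eb1 and Ctss had lower means in both fasted groups than in both fed groups, while Ciita spread over a similar range in all 4.

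H2-Ab1 had a lowest, median and highest log2 signal of 6.38, 7.57 and 8.18 in fed mice without earlier fasts, and of 5.84, 6.18 and 7.58 after the fast. With 2 earlier fasts the corresponding signals were 6.73, 7.25 and 8.11 in fed and 5.6, 6.30 and 6.69 in fasted mice. The groups with 2 earlier fasts did not overlap; those without overlapped because fed replicates 4 and 7 were low (6.56 and 6.38) and fasted replicates 4 and 7 were high (7.22 and 7.58). The change was -1.03 (SE 0.25, limma adjusted p = 0.00413) without and -1.10 (SE 0.26, adjusted p = 0.00335) with earlier fasts, and -1.06 (SE 0.18, adjusted p = 2.78e-05) on average. Below the fed median lay 14 of 15 fasted arrays.

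H2-Aa had a lowest, median and highest signal of 4.64, 5.30 and 6.06 in fed mice and 3.78, 4.35 and 5.45 in fasted mice without earlier fasts. With earlier fasts these were 4.25, 4.90 and 5.58 when fed and 3.68, 4.55 and 4.98 when fasted. Fed and fasted arrays overlapped in both histories. The change passed the test without earlier fasts (-0.86, SE 0.22, limma adjusted p = 0.0062) and missed it with them (-0.52, SE 0.23, adjusted p = 0.157). The difference between these changes was itself 0.33 with a 95% confidence interval from -0.31 to 0.98 (adjusted p = 0.999), so they were not shown to differ. The average change was -0.69 (SE 0.16, adjusted p = 0.00125).

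H2-Eb1 signals ran from 5.03 to 6.29 (median 5.81) in fed and from 4.67 to 5.98 (median 5.00) in fasted mice without earlier fasts. With earlier fasts they ran from 5.02 to 6.03 (median 5.59) when fed and from 4.69 to 5.43 (median 4.87) when fasted. The ranges overlapped in both histories, although 7 of 8 and 7 of 7 fasted arrays lay below the fed median. The changes were -0.56 (SE 0.17, limma adjusted p = 0.0258) and -0.54 (SE 0.18, adjusted p = 0.0445), and -0.55 on average (SE 0.12, adjusted p = 0.00104). Both single-history calls were near the threshold and were lost without single arrays: without earlier fasts when fed replicate 1, 2 or 6 or fasted replicate 5, 6 or 8 was left out (adjusted p up to 0.0711), with them when fed replicate 1, 2, 3, 5, 7 or 8 or fasted replicate 2, 3, 5, 6 or 7 was left out (up to 0.101). In contrast, the average call was kept without any one of the 31.

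Ctss, the cathepsin that trims the invariant chain, ran from 6.55 to 7.69 (median 7.16) in fed and from 6.04 to 7.14 (median 6.49) in fasted mice without earlier fasts. With earlier fasts it ran from 6.12 to 7.42 (median 7.28) when fed and from 5.87 to 6.84 (median 6.50) when fasted. All 15 fasted arrays lay below the fed median, but the ranges overlapped, in the groups with earlier fasts through 1 fed array at 6.12. The changes were -0.63 (SE 0.18, limma adjusted p = 0.0121) and -0.68 (SE 0.18, adjusted p = 0.00954), with an average of -0.66 (SE 0.13, adjusted p = 0.000147).

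H2-DMa and H2-DMb1 encode the peptide exchange factor H2-DM, and neither reached a signal of 4 in any array. H2-DMa group medians were 2.41 and 2.26 in fed and fasted mice without earlier fasts and 2.47 and 2.40 with them, over a range of 1.87 to 3.29 in all arrays. Its value was identical (2.40) in 6 arrays, which therefore have no order. H2-DMb1 medians were 1.70 and 1.40 without and 1.70 and 1.60 with earlier fasts, over a range of 1.20 to 2.43. The average changes were -0.21 (SE 0.10, limma adjusted p = 0.164) and -0.24 (SE 0.10, adjusted p = 0.114). Both genes overlapped widely between fed and fasted groups. Without fasted replicate 7 of the group with 0 earlier fasts the H2-DMb1 change passed, at -0.28 (adjusted p = 0.0331).

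Ciita, the master coactivator, never reached a signal of 4. Its medians were 2.67 fed and 2.59 fasted without earlier fasts, and 2.42 fed and 2.23 fasted with them, over a range of 1.82 to 3.10. The average change with fasting was -0.04 with a 95% confidence interval from -0.28 to 0.19 (limma adjusted p = 0.884). Low values can be compressed, so this interval does not bound the change of the transcript.

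In all, 4 of 7 members were called lower without earlier fasts, beside 6.23% of all genes called lower and 12.5% called in either direction. With 2 earlier fasts 3 of 7 were called lower, beside 5.52% lower and 11.6% in either direction. On average over both histories 4 of 7 were called lower, beside 9.36% lower and 19.1% in either direction. All 7 changes were below 0 in each of these comparisons. The median change of the members was -0.56, -0.52 and -0.55 in turn, where the median of all genes was 0.00 throughout.

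**Figure D2:**
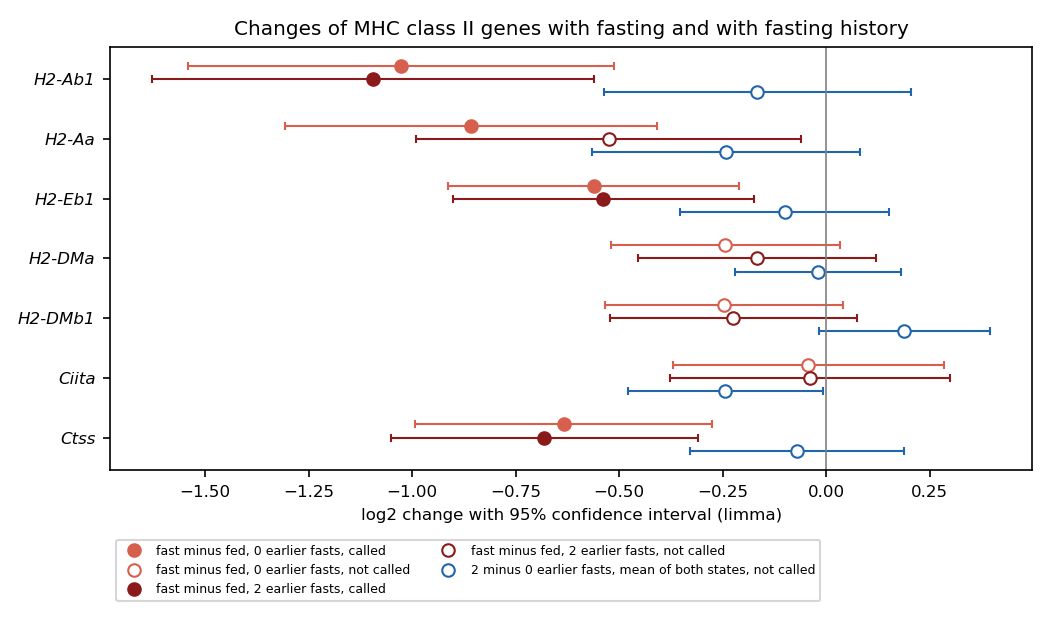
Log2 change with its 95% confidence interval for the 7 class II genes: fasted minus fed with 0 and with 2 earlier fasts, and 2 minus 0 earlier fasts averaged over both states. Filled points passed an adjusted p of 0.05; the fasting changes of H2-Ab1 lie near -1 in both histories, and no history change passed.

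Earlier fasts left no change that passed the test. limma called 0% of genes (0 of 22180) for history in fed mice, for history in fasted mice, for their average and for the interaction of history with the final fast. At an unadjusted p under 0.05 these comparisons held 1245, 996, 1185 and 1023 genes. Of the members, 1 was among them, Ciita in the average over both states, at -0.24 (SE 0.12, unadjusted p = 0.043, adjusted p = 0.925). H2-Aa was lower by 0.41 in fed mice with earlier fasts (SE 0.22, adjusted p = 0.9), a gap smaller than its SD of 0.51 between replicates. For H2-Ab1 the interaction was -0.07 with an interval from -0.81 to 0.67, so differences in response within those bounds could not be told from 0 with these arrays.

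The order of the group means was the same for H2-Ab1, H2-Aa, H2-Eb1 and Ctss: fed without earlier fasts, fed with them, fasted without, fasted with. For H2-Ab1 the step from the lower fed to the higher fasted mean was 0.89, larger than the larger SD of 0.65. For H2-Eb1 that step was 0.45 against an SD of 0.39, and for Ctss 0.59 against 0.44. For H2-Aa it was 0.45 against 0.53 and did not exceed the spread. No other neighbouring means of any member differed by more than their larger SD.

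Levels also varied between mice of a group. The SD within groups was 0.55 for H2-Ab1, above that of 99.1% of all genes, 0.48 for H2-Aa (98.4%), 0.38 for Ctss (95.7%) and 0.37 for H2-Eb1 (95.2%), where the median gene had 0.20. It was 0.34 for Ciita (93%), 0.30 for H2-DMb1 (87.2%) and 0.29 for H2-DMa (84.7%). Among the 500 genes nearest in mean signal the shares below were 99.2% for H2-Ab1, 98.8% for H2-Aa, 97.8% for Ctss, 94.8% for H2-Eb1, 93% for H2-DMb1, 79% for Ciita and 62.2% for H2-DMa. Fasted replicate 7 of the mice with 0 earlier fasts was the highest of its group in all 7 members. That array was also the highest of its group in the mean of the Kupffer cell, dendritic cell, B cell and pan-leukocyte markers. Fed replicate 7 of the same history was the lowest of its group in 6 of 7 members, and the lowest in the means of the Kupffer cell (5.16), pan-leukocyte (3.69), T and NK cell, monocyte and neutrophil, sinusoidal endothelial, stellate and hepatocyte markers, but the highest in the dendritic cell mean (2.66). Without either array the calls of H2-Ab1, H2-Aa and Ctss in that history were kept.

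Deviations from the group means were then compared across the 31 arrays, H2-Ab1 against the 6 other measured members and 3 marker means, in 9 relations with permutations within groups and Benjamini-Hochberg adjustment. H2-Ab1 followed H2-Aa most closely (r = 0.89, rho = 0.83) and H2-Eb1 nearly as closely (r = 0.87, rho = 0.81); both had a permutation p of 1e-05, the smallest that 100000 permutations can give, and an adjusted p of 4.5e-05. Ctss followed with r = 0.64 and rho = 0.66 (permutation p = 0.00028 and 0.00013, adjusted 0.00063 and 0.000292). For H2-DMa r was 0.57 and rho 0.48 (permutation p = 0.00167 and 0.00912, adjusted 0.0025 and 0.0137). Ciita had r = 0.57 and rho = 0.56 (permutation p = 0.00127 and 0.00212, adjusted 0.00229 and 0.00382). H2-DMb1 showed no relation that passed (r = 0.19, rho = 0.06, permutation p = 0.344 and 0.747, adjusted 0.387 and 0.84).

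Among the marker means, Kupffer cell markers followed H2-Ab1 with r = 0.71 and rho = 0.68 (permutation p = 2e-05 and 0.00011, adjusted 6e-05 and 0.000292). B cell markers gave r = 0.49 and rho = 0.42 (permutation p = 0.00686 and 0.0212, adjusted 0.00882 and 0.0273), and dendritic cell markers r = 0.13 and rho = -0.01 (permutation p = 0.553 and 0.946, adjusted 0.553 and 0.946). Mean signals were under 3 for 6 of 8 dendritic cell, 6 of 7 B cell and 0 of 12 Kupffer cell markers. The r values therefore do not rank these cell types. Leaving out the 2 arrays farthest in H2-Ab1, replicate 7 of both groups without earlier fasts, gave r = 0.86 for H2-Aa, 0.82 for H2-Eb1, 0.52 for Ctss, 0.45 for H2-DMa and for Ciita, 0.05 for H2-DMb1, 0.64 for Kupffer cell, 0.36 for B cell and -0.06 for dendritic cell markers. Within fed and within fasted arrays r was 0.90 and 0.88 for H2-Aa, 0.87 and 0.87 for H2-Eb1, 0.55 and 0.77 for Ctss, 0.46 and 0.73 for H2-DMa, 0.82 and 0.36 for Ciita and 0.07 and 0.35 for H2-DMb1. For the marker means it was 0.71 and 0.72 for Kupffer cells, 0.24 and 0.75 for B cells and -0.24 and 0.49, of opposite sign, for dendritic cells; these within-state values were not compared by a test.

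**Figure D3:**
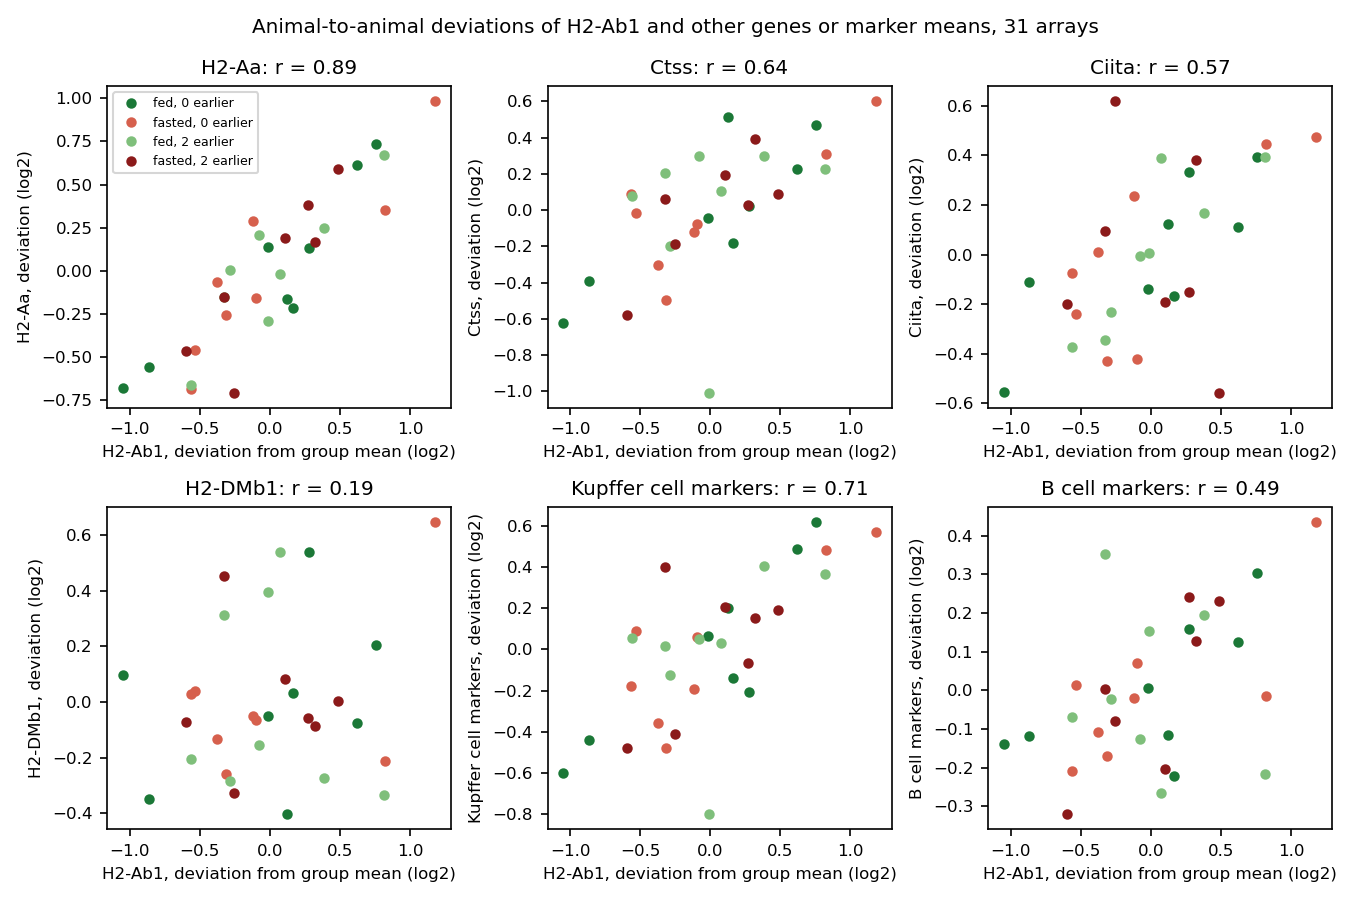
Deviation of H2-Ab1 from its group mean (log2, horizontal) against that of 4 other members and of the Kupffer cell and B cell marker means (log2, vertical) in 31 arrays, coloured by group. H2-Aa lies close to a line (r = 0.89), Kupffer cell markers follow more loosely (r = 0.71) and H2-DMb1 is scattered (r = 0.19).

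Ranked by this correlation among 22179 other genes, H2-Aa was first and H2-Eb1 second, Ctss stood at 60, H2-DMa at 110, Ciita at 111 and H2-DMb1 at 3840. Outside the members, and leaving out predicted or numbered gene models (1 of which stood at rank 6), the 8 genes most like H2-Ab1 over the 31 arrays were Cd53 (r = 0.80), a leukocyte tetraspanin; Cd52 (0.77), a leukocyte surface glycoprotein; Fcer1g (0.76), the Fc receptor gamma chain; Laptm5 (0.76); Themis2 (0.76); Cxcl9 (0.75), an interferon-gamma-induced chemokine; Cd68 (0.75), a macrophage lysosomal protein; and Pld4 (0.74). Cxcl9 fell by 1.31 with fasting (limma adjusted p = 1.1e-07), Themis2 by 0.75 (adjusted p = 0.00141) and Pld4 by 0.71 (adjusted p = 0.00181). Fcer1g and Laptm5 did not pass (adjusted p = 0.309 and 0.0989).

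Counts for the other genes of the pathway are for the average fasting response, in limma's test over all genes. That test called 19.1% of all genes in either direction. None of the 5 other class II chains measured passed: H2-Ea, H2-Eb2, H2-DMb2, H2-Oa and H2-Ob had group means between 1.04 and 2.12. H2-Ea stood at 0.93 to 1.62 over all arrays; C57BL/6 mice are known to lack a functional copy. The windows of H2-Eb2, H2-DMb2 and H2-Oa held both box cores and that of H2-Ob the Y box core. In H2-Oa the X and Y box cores stood at -137 to -131 and -45 to -39, farther apart than in H2-Eb2 and H2-DMb2.

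Of 9 promoter factors and ubiquitin ligases 2 rose and 1 fell, beside 19.1% of all genes called in either direction and 9.36% called lower; the 1 that fell is near the latter share. Nfyb, a subunit of the Y box factor NF-Y, fell by 0.52 (adjusted p = 1.18e-06) and Nfya, another subunit, rose by 0.34 (adjusted p = 0.00565). Marchf8, a ligase that can send class II to lysosomes, rose by 0.16 (adjusted p = 0.0473). The X box factors Rfx5, Rfxap and Rfxank had changes of 0.02, 0.03 and 0.06 that did not pass.

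Among 10 endosomal processing genes 5 rose and 1 fell, beside 19.1% of all genes called in either direction and 9.36% called lower. The 1 that fell is near the latter share. Ctss, counted with the members, fell. Ctsz rose by 0.38 (adjusted p = 2.36e-06), Ctsl by 0.34 (adjusted p = 9.03e-05) and Ctsf by 0.31 (adjusted p = 0.00042). Ctsb fell by 0.21 (adjusted p = 0.00756). The list's median change was 0.06, against -0.55 for the class II members.

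Class I presentation genes were called lower in 9 of 13 cases and higher in 0, beside 9.36% of all genes called lower. Their median change was -0.35. Psmb10, an immunoproteasome subunit, fell by 0.91 (adjusted p = 2.64e-13) with no overlap between fed and fasted arrays. The peptide-loading chaperones Calr and Pdia3 fell by 0.48 and 0.45, and Psmb9, another immunoproteasome subunit, by 0.43. The class I heavy chain H2-K1 and its partner B2m changed by -0.04 and -0.06 and did not pass (limma).

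On the interferon-gamma axis, the main inducer of CIITA in many cells, 4 of 12 genes fell and 1 rose. Over all genes 9.36% were called lower and 19.1% in either direction. Irf1 fell by 0.50 (adjusted p = 2.93e-05), Irf2 by 0.39 (adjusted p = 1.54e-06) and Jak2 by 0.32 (adjusted p = 5.32e-05), while the receptor subunit Ifngr2 rose by 0.63 (adjusted p = 3.21e-09). Ifng itself was dim, at a mean of 1.49 in fed and 1.33 in fasted livers. None of 6 costimulation genes passed. Their mean signals in fed and fasted livers lay between 1.53 and 3.47, where changes can be compressed.

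**Figure D4:**
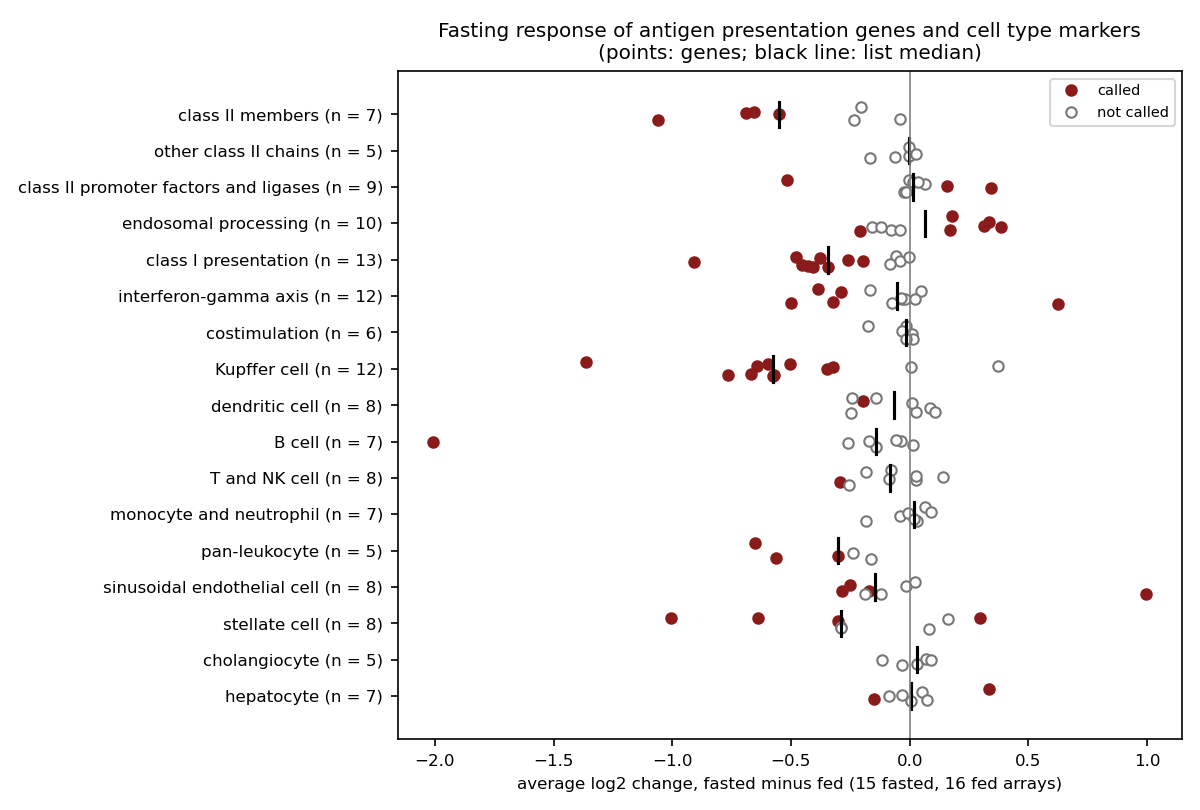
Average log2 change, fasted minus fed, of every measured gene in the pathway and cell marker lists; each point is 1 gene, filled where it passed an adjusted p of 0.05, and black lines are list medians. Class II members, class I presentation, Kupffer cell and pan-leukocyte markers have medians below -0.3, while other class II chains and costimulation genes lie near 0. These last lists had low signals, where changes can be compressed.

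Kupffer cell and pan-leukocyte markers were the marker lists in which most genes fell, beside 9.36% of all genes. Of 12 Kupffer cell markers 10 fell and 0 rose, among them Folr2 (-1.36), Adgre1 (-0.76), Vsig4 (-0.67) and Timd4 (-0.64), with a list median of -0.57. Marco (0.37, SE 0.30) and Cd163 (0.01, SE 0.13) had changes above 0 that did not pass. The mean of the 12 ran from 5.16 to 6.38 and 4.86 to 6.07 in the fed groups without and with earlier fasts, and from 4.70 to 5.75 and 4.77 to 5.65 in the fasted groups; no marker had a mean under 3. Among B cell markers 1 of 7 fell, near the share of all genes: Ighm, the IgM heavy chain, fell by 2.01 (limma adjusted p = 6.61e-07), and the other 6 had means under 3. Among dendritic cell markers 1 of 8 fell, also near that share, Xcr1 by 0.20, with a list median of -0.07, and 6 of 8 had means under 3. Of the pan-leukocyte markers 3 of 5 fell, Cd53, Ptprc and Cd52. The part of these markers in the class II result was not tested.

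In the other lists the counts are read beside 19.1% of all genes called in either direction and 9.36% called lower. Among 8 sinusoidal endothelial markers 1 rose, Lyve1 by 1.00, and 3 fell, Mrc1 by 0.28, Clec4g by 0.25 and Stab2 by 0.17. Among 8 stellate cell markers 3 fell, Col3a1 by 1.00, Lrat by 0.64 and Reln by 0.30, and Hand2 rose by 0.29. T and NK cell markers had 1 of 8 called (Nkg7, at -0.29), near the share of all genes. Among 7 hepatocyte markers Hnf4a rose by 0.33 and Ttr fell by 0.15, and limma called 0 of 7 monocyte and neutrophil and 0 of 5 cholangiocyte markers. Mean signals were under 3 for 8 of 8 T and NK cell, 7 of 7 monocyte and neutrophil and 4 of 5 cholangiocyte markers. Low values can be compressed, so these 3 counts do not show that the cell types were unchanged.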

How the data were processed

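Liver RNA (100 ng per sample) was labelled with an Affymetrix whole-transcript sense kit and hybridised to 31 arrays, per the labels. The authors deposited log2 values for 41345 probe sets, made with RMA per the submitters' processing notes; its version, background settings and annotation are not given in the sources used here. RMA makes arrays share 1 distribution, so values are relative to each array's whole signal, and low values can be compressed.

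Groups came from the sample titles. Probe sets with 1 symbol (23521) were kept, 1 per gene by highest mean, and those with several (1814) or none (16010) were left out, which removed Cd74 and turned the planned 10 relations of H2-Ab1 into 9. All 4 groups were fitted together in limma 3.58.1 (R 4.3.3) with Benjamini-Hochberg adjustment over 22180 genes and calls at an adjusted p under 0.05. Relations used 100000 permutations within groups (numpy 2.4.6). The scripts were tested on simulated data.

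The members, gene lists and tests were chosen with earlier results of these data known. Text names all members, up to 4 called genes per list with the largest change, the other class II chains and the 8 genes most like H2-Ab1 apart from predicted or numbered gene models; further list members named by value were chosen after their values were seen. Each array held liver RNA of a mouse, per the labels. Same-numbered arrays of different groups were checked for pairing: deviations correlated at -0.06 to 0.12 in 45 pairs, and 3 exceeded 0.1. These low values do not settle whether numbers pair the samples. The main fit used no replicate block. Alternatives were another probe set rule, an intensity trend, cyclic loess, all probe sets tested together, array weights, a replicate block, a filter on dim genes (4 or more in at least 7 arrays), only the groups compared, and leaving out each array.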

Additional observations from a re-analysis of the deposited data

Results flagged for a closer look

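Of 28 gene and group combinations tested for a value standing apart, 3 had one; a gap that large relative to the group's range has a critical value of 0.526 at 8 samples, which chance exceeds in about 1 in 20 groups. H2-DMa in fasted replicate 7 without earlier fasts was 2.91, with the next array at 2.40, a gap of 0.629 of the range. H2-DMb1 in the same array was 2.11, with the next at 1.5, a gap of 0.671 of the range. Ctss in fed replicate 5 with 2 earlier fasts was 6.12, with the next array at 6.93, a gap of 0.62 of the range.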

How the results depend on the processing

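The fasting calls of H2-Ab1 and Ctss, and the H2-Aa calls without earlier fasts and on average, were kept under every alternative run. H2-Eb1 was the exception: without earlier fasts it lost its call with all probe sets tested together (adjusted p = 0.0508) and with only the groups compared (adjusted p = 0.06), and with earlier fasts with all probe sets (adjusted p = 0.0821) and with array weights (adjusted p = 0.0515). Under the replicate block its change with earlier fasts was -0.55 with an adjusted p of 0.0719, and the block changed no other member call. Of 31 arrays, 7 correlated best with an array of their own number, which does not settle whether numbers pair the samples. Changes near 0 turned sign for Ctss by history in fed mice with array weights (0.0152) and for the Ciita interaction with the replicate block (-0.00509). The filter on dim genes left no value for H2-DMa, H2-DMb1 and Ciita, and each member has 1 probe set, so the probe set rule could not move a member's change. Cyclic loess changed no member call.

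Without single arrays, H2-Eb1 lost its call in 6 of 31 fits without earlier fasts and in 11 with them. All genes called ran from 0 to 1 for history in fed mice, history in fasted mice and the interaction. Changes that were never called crossed 0. For Ciita they ran from -0.122 to 0.0184 without earlier fasts, from -0.142 to 0.0546 with them and from -0.0924 to 0.00578 on average. For history in fed mice H2-DMa ran from -0.112 to 0.0441 and Ctss from -0.136 to 0.0973. For history in fasted mice H2-Aa ran from -0.174 to 0.0656, H2-Eb1 from -0.156 to 0.0337, H2-DMa from -0.0285 to 0.1004 and Ctss from -0.164 to 0.00262. For average history H2-DMa ran from -0.0468 to 0.0314 and Ctss from -0.115 to 0.00175. Interactions ran from -0.176 to 0.101 for H2-Ab1, -0.0643 to 0.145 for H2-Eb1, -0.0254 to 0.158 for H2-DMa, -0.0541 to 0.116 for H2-DMb1, -0.0988 to 0.0976 for Ciita and -0.191 to 0.0494 for Ctss.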

Other observations

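In fed replicate 5 of the mice with 2 earlier fasts, Ctss (6.12) and the Kupffer cell marker mean (4.86) were the lowest of their group, while H2-Ab1 was 7.28 and H2-Eb1 5.76, both above their group medians of 7.25 and 5.59, and H2-Aa was 4.62, below its median of 4.90. In fasted replicate 7 of the same history the Kupffer cell marker mean was the highest of its group (5.65), and H2-Ab1 was 5.88 against a group median of 6.30. No reason for either was tested.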
